A study of Mus musculus with 2 samples.

Results

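The surfactant genes described here are 9 genes: Sftpc, Sftpb, Sftpa1, Sftpd, Abca3, Napsa, Lpcat1, Lamp3 and Slc34a2. They were taken by name from a list of genes known to make, process or carry pulmonary surfactant, and not by a rule on measured values. Earlier results of these data were known when they were chosen. They are 9 of the 24417 genes present in at least 1 of both count tables, and all 9 were present in each table. Single cells came from whole lungs of CCR2KO mice (genotype CCR2-/-, lacking a chemokine receptor of monocytes) and of WT mice, all on the C57BL/6 strain. Every mouse had received silica, a mineral dust, into the trachea at 400 mg/kg, so no untreated lung served as a control, and lungs were collected on days 3, 7 and 21. Cell suspensions were marked with hashtag antibodies (tags), pooled, and run on a microwell system, with 20000 cells loaded and 1 library per genotype. The CCR2KO library held 8 tags and the WT library 9. No source used here gives the day or the animal of a tag, the age or sex of the mice, or the part of Ccr2 that was deleted.

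Tags were grouped by number into tag blocks: tags 1 to 3, tags 4 to 6, and tags 7 to 9 (7 and 8 in CCR2KO). A block is a range of tag numbers, and it is not assumed to be a day. Genotype and cartridge are the same split, and their effects cannot be told apart. The p-values measure the spread between tagged suspensions, which may be technical.

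Pulmonary surfactant is a film of phospholipid and protein that lowers surface tension at the air surface of the alveolus. Alveolar type 2 cells assemble it in lamellar bodies, storage organelles that fuse with the cell membrane, and take part of it up again. Sftpb and Sftpc encode the hydrophobic surfactant proteins B and C, which spread the lipid film, and Sftpa1 and Sftpd encode the collectins A and D, which bind microbes and particles. Napsa encodes napsin A, an aspartic protease that cuts the precursors of surfactant proteins B and C. Abca3 encodes the pump that loads phospholipid into lamellar bodies, Lamp3 a glycoprotein of their membrane, Lpcat1 an enzyme that remodels phosphatidylcholine, and Slc34a2 a phosphate transporter of the apical membrane.

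Tagged cells numbered 15955 in CCR2KO and 17854 in WT. Reads per tag lay between 56541715 and 88359317 in CCR2KO and between 63327246 and 94948946 in WT. The libraries shared 342 cell numbers. After filters on detected genes, mitochondrial reads and doublets, 14882 CCR2KO cells and 16857 WT cells were clustered without the 9 genes and without Ccr2. Over all these cells, Ccr2 lay between 1.45 and 4.39 reads per 1000000 reads (CPM) in the CCR2KO tags and between 53.8 and 100.8 CPM in the WT tags, without overlap, so the libraries matched their labels. The alveolar type 2-like (AT2) cluster held 1520 CCR2KO cells (10.2%) and 901 WT cells (5.34%). Its per-tag share of cells ran from 6.28% to 14.98% in CCR2KO, with a median of 10.5%, and from 3.86% to 7.23% in WT, with a median of 4.98%. Markers of the type that the clustering could use, other than Dlk1, stood above their level in other cells. The gap was wide for Cxcl15 (13531 CPM against 199 CPM), Hc (1650 CPM against 15.96 CPM) and S100g (1149 CPM against 16.9 CPM). It was smaller for Lyz1 (10556 CPM against 2280 CPM), Cd74 (4187 CPM against 1998 CPM) and Fabp12 (27.2 CPM against 11.4 CPM). Of the 24 markers of the type, 1 (Dlk1) had no read in these cells. AT2 cells per tag numbered 122 to 279 in CCR2KO and 73 to 137 in WT, with 7666747 to 13758605 reads in CCR2KO and 3977619 to 7072124 reads in WT. The median AT2 cell of a tag had 1192.5 to 1530 detected genes in CCR2KO and 1398 to 1751 in WT.

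The 3 promoter windows shown here belong to the genes whose level in AT2 cells passed a test, and are shown for that reason. Each runs from 250 bases before to 50 bases after the RefSeq start on GRCm38.p6, on the plus strand, 5′ to 3′. The windows are chr6:72304360-72304659 for Sftpb, chr14:41131538-41131837 for Sftpa1 and chr5:53049103-53049402 for Slc34a2. Capitals mark matches to CACTNNAG, a core of sites for the lung and thyroid factor NKX2-1, or to the TATA box TATAAA. Both strands were searched, for these and for the forkhead-type motif TGTTTAC, and the motifs were chosen after the data were seen.
Sftpb: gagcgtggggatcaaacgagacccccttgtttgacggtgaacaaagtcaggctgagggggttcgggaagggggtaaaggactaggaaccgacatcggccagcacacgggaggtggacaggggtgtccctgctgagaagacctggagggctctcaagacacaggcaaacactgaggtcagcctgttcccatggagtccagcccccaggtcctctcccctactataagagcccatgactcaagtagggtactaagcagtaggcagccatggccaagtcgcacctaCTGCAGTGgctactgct
Sftpa1: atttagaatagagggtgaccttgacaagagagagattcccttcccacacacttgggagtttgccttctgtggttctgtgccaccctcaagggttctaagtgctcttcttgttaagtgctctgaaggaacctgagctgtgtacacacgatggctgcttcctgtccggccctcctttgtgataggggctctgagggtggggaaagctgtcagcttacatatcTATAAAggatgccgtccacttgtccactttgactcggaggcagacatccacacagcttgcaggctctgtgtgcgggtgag
Slc34a2: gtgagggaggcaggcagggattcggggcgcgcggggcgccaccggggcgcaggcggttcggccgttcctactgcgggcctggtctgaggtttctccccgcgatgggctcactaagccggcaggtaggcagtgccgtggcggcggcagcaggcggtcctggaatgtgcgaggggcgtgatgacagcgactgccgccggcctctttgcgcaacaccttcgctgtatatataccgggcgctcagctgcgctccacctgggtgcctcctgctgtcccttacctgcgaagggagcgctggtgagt
The Sftpb window matched CACTNNAG on the other strand, 33 bases after the start, and the Sftpa1 window held TATAAA 30 bases before it. The Slc34a2 window held none of the 3 motifs. Of 32851 mouse promoter windows of the same length, 15.99% held CACTNNAG, 13.6% TATAAA and 3.65% TGTTTAC, so a match describes the window and names no bound site. The Slc34a2 start used by RefSeq lies inside the gene as annotated by GENCODE, which runs from 53038081 to 53071664 on chromosome 5. Sftpb spans 72304610 to 72314371 on chromosome 6, and Sftpa1 41131782 to 41136452 on chromosome 14. Sftpd lies near Sftpa1, from 41172214 to 41185149, and Sftpc from 70520949 to 70524081, both on the minus strand of chromosome 14.

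Within AT2 cells the surfactant genes made up a large share of all reads. Together the 9 genes took 16.4% to 18.9% of the reads of a CCR2KO tag, with a mean of 17.9%, and 15.6% to 18.5% of a WT tag, with a mean of 17.02%. Sftpc alone took 12.6 ± 0.765% in CCR2KO (SD, n = 8 tags) and 12.1 ± 0.572% in WT (SD, n = 9 tags). An Sftpc read was found in 99.4% to 100% of the AT2 cells of a CCR2KO tag and in 98.9% to 100% of those of a WT tag. The share for Abca3 was 53.8% to 64.8% in CCR2KO and 50.7% to 69.1% in WT, and for Lpcat1 75% to 90.2% in CCR2KO and 71.4% to 90.1% in WT. These are shares of reads and of cells with a read, which depend on transcript length and depth, and they do not order the genes by abundance.

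**Figure D1:**
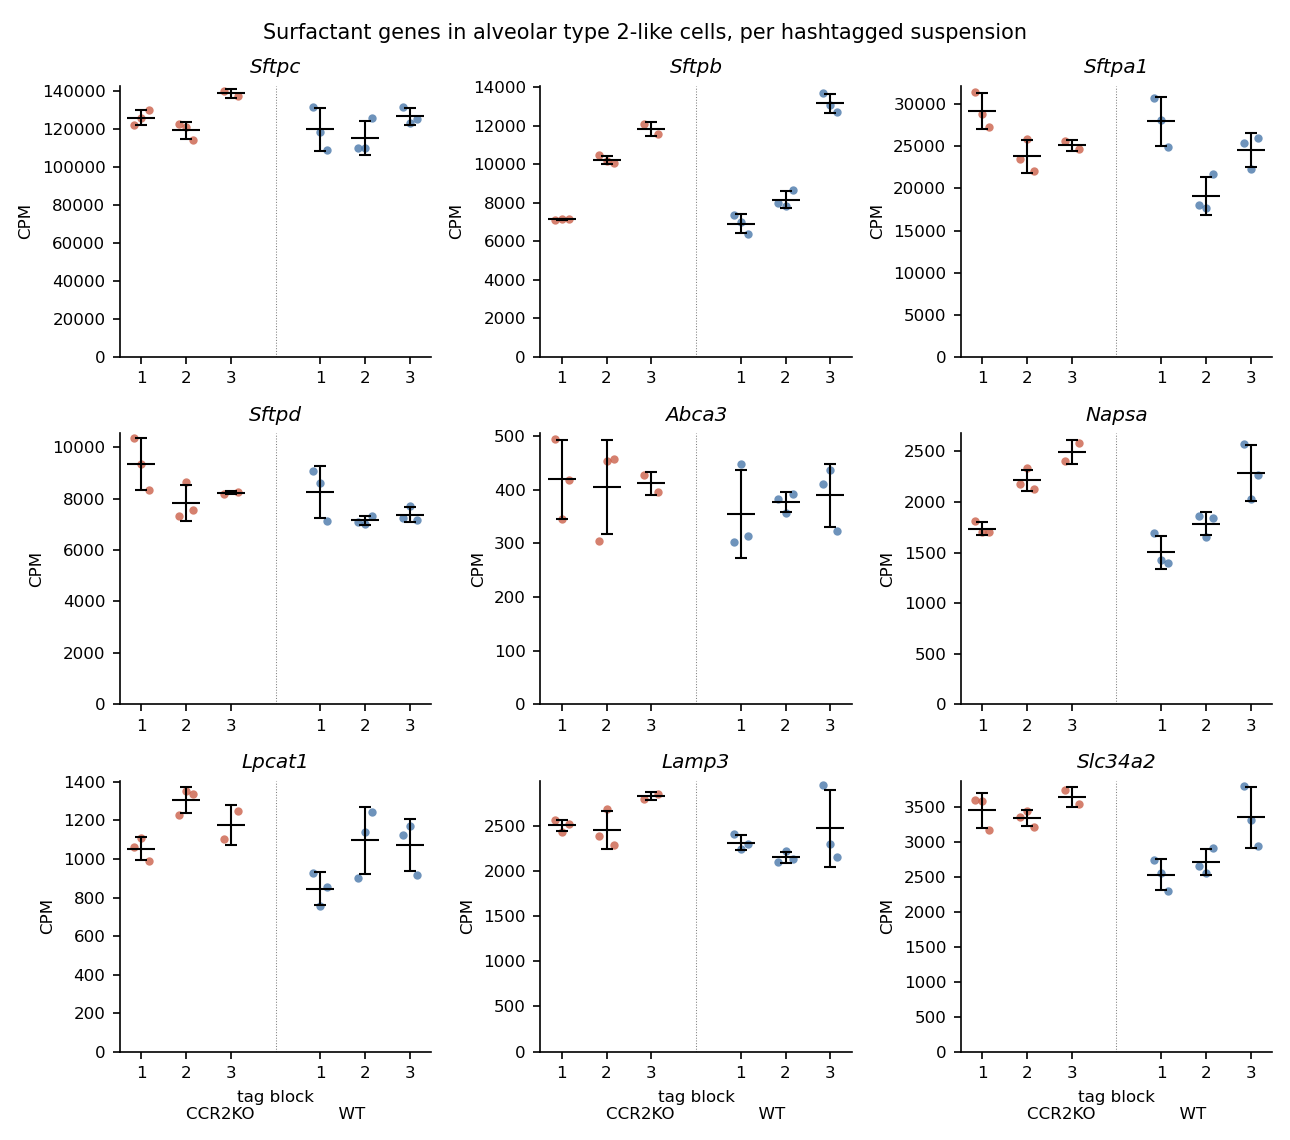
Level of each surfactant gene in AT2 cells (vertical axis, CPM from 0) for each tagged suspension (points), by tag block (horizontal axis), with CCR2KO left of WT; bars show the mean and SD of a block. Sftpb steps up from block to block in both genotypes, and Sftpa1 is lowest in block 2.

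The first comparison asked whether AT2 cells of CCR2KO lungs held other levels of these genes than those of WT lungs. All 9 genes had a positive log2 change, between 0.07 for Sftpb and 0.29 for Slc34a2, with a median of 0.16. The median over all 14981 genes tested was 0.04. Of the 9 genes, 1 passed the threshold of an adjusted p of 0.05, against 0.294% of all genes tested (44 genes, 13 higher and 31 lower in CCR2KO). That gene was Slc34a2, the phosphate transporter. The remaining 8 genes had adjusted p-values from 0.153 for Napsa to 0.776 for Abca3 in edgeR's quasi-likelihood test. Detected genes of the median AT2 cell differed too. They numbered 1208.5 to 1277 in CCR2KO and 1442 to 1653.5 in WT in block 1. In block 2 they numbered 1327 to 1530 and 1488 to 1751, and in block 3 1192.5 to 1354.5 and 1398 to 1515.5, in the same order of genotypes. Their part in the genotype differences was not tested.

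Slc34a2 had 3599, 3589 and 3163 CPM in CCR2KO tags 1 to 3, 3362, 3448 and 3217 CPM in tags 4 to 6, and 3738 and 3543 CPM in tags 7 and 8. The WT tags had 2745, 2552 and 2298 CPM in tags 1 to 3, 2653, 2558 and 2917 CPM in tags 4 to 6, and 3798, 3312 and 2938 CPM in tags 7 to 9. The CCR2KO tags were the higher ones in blocks 1 and 2 without overlap, while in block 3 the genotypes overlapped and the highest value of all was a WT tag. The mean was 3457 ± 199 CPM in CCR2KO (SD, n = 8) and 2863 ± 454 CPM in WT (SD, n = 9). Slc34a2 was higher in CCR2KO by 0.29 on the log2 scale (SE 0.05, adjusted p = 0.0217, edgeR). The call was lost when tag blocks were left out of the model (adjusted p = 0.594) and when cells needed 500 detected genes and at most 10% mitochondrial reads (adjusted p = 0.203), within a range of 0.000691 to 0.594 over the alternatives. It was also lost without CCR2KO tag 1, 2, 4, 5, 7 or 8, with adjusted p-values of 0.0650, 0.0608, 0.0548, 0.0525, 0.115 and 0.0622. The change itself stayed between 0.26 and 0.32 over the 17 fits with 1 tag left out.

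Within block 1, 0 of the 9 genes passed, against 0.00668% of all genes, and within block 3 again 0, against 0.02%. Slc34a2 in block 1 had a log2 change of 0.45 (SE 0.09, adjusted p = 0.172). Within block 2, 1 of 9 passed, against 0.14% of all genes, and it was Sftpb. Its CCR2KO values of 10461, 10146 and 10078 CPM all lay above the WT values of 8003, 7813 and 8684 CPM. The mean was 10228 ± 204 CPM in CCR2KO and 8166 ± 458 CPM in WT (SD, n = 3 each), a log2 change of 0.32 (SE 0.05, adjusted p = 0.0104, edgeR). In block 3 the order was the other way, with 12078 and 11553 CPM in CCR2KO and 13701, 13082 and 12708 CPM in WT, and that difference did not pass (log2 change -0.16, SE 0.06, adjusted p = 0.610, edgeR).

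The higher Sftpb of CCR2KO in block 2 depended on how cells were chosen. Its adjusted p was 0.0937 with the surfactant genes kept in the clustering, 0.434 with the stricter cell filter and 0.411 with cells weighted equally in limma, where its log2 change was 0.15. It also missed the threshold without CCR2KO tag 4, 5 or 6 (adjusted p = 0.0897, 0.0565 and 0.0694) and without WT tag 4 or 5 (0.0517 and 0.0634). Sftpa1, the collectin A gene, also had no overlap in block 2, with 23520, 25826 and 22026 CPM in CCR2KO against 17986, 17643 and 21739 CPM in WT. Its log2 change of 0.32 (SE 0.09) did not pass (adjusted p = 0.240, edgeR). Whether the genotype difference itself differed between blocks was tested as an interaction, and 0 of 9 genes and 0 of 14981 genes passed in edgeR (0%). Sftpb had the smallest interaction p of the 9 genes, 3.53e-05 before and 0.132 after adjustment (edgeR). At an unadjusted p under 0.05 there were 1001 genes. DESeq2 called 55, of which 1 was a surfactant gene, and limma 2, so the outcome depended on the tool.

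The second comparison set the tag blocks against each other within a genotype, and its strongest values belonged to Sftpb. In CCR2KO, Sftpb had 7091, 7145 and 7173 CPM in block 1, 10461, 10146 and 10078 CPM in block 2, and 12078 and 11553 CPM in block 3. In WT it had 7369, 7007 and 6389 CPM in block 1, 8003, 7813 and 8684 CPM in block 2, and 13701, 13082 and 12708 CPM in block 3. The 3 blocks did not overlap in either genotype, and each later block was the higher one. The step from block 1 to block 2 passed in CCR2KO, at 0.52 on the log2 scale (SE 0.05, adjusted p = 2.39e-05, edgeR), and did not pass in WT, at 0.24 (SE 0.05, adjusted p = 0.0717). The step from block 2 to block 3 passed in WT, at 0.69 (SE 0.05, adjusted p = 1.01e-06, edgeR), and did not pass in CCR2KO, at 0.21 (SE 0.06, adjusted p = 0.752). Both steps kept their call in each of 17 fits that left out 1 tag, and with the stricter cell filter, at 0.54 in CCR2KO and 0.58 in WT. In WT the step from block 1 to block 2 passed with the stricter filter too (0.41, adjusted p = 0.00471), within a range of 0.00471 to 0.272 over the alternatives.

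The steps of Sftpb were also seen cell by cell. The CPM of the median cell of a tag lay between 6816 and 7037 in block 1, between 9035 and 10170 in block 2 and between 10380 and 10784 in block 3 of CCR2KO. In WT it lay between 6089 and 6906, between 8123 and 9351, and between 11164 and 11734 in the same order of blocks. The upper quartile of cells had the same order, and so did the lower quartile, with an overlap of blocks 2 and 3 in CCR2KO. The lower quartile reached 8380 to 8539 CPM in block 3 of WT against 4473 to 4691 CPM in block 1. Quality moved with the blocks as well: the mitochondrial share of the median AT2 cell was 8.01% to 8.65%, 8.99% to 9.62% and 9.53% to 10.3% in blocks 1, 2 and 3 of CCR2KO, and 7.78% to 9.74%, 8.79% to 9.22% and 10.1% to 11.2% in WT. Its reads numbered 40640.5 to 43989, 48179 to 58879 and 40336 to 50320 in the same blocks of CCR2KO. In WT they numbered 39867 to 47369.5, 47311 to 59200 and 36455 to 42694.5. Club cells also make surfactant protein B. The summed level of 12 club cell markers in AT2 cells was 2132 to 3144, 3376 to 4980 and 1645 to 2083 CPM in blocks 1, 2 and 3 of CCR2KO, and 1647 to 2192, 2487 to 4789 and 1445 to 2413 CPM in WT. In both genotypes the ranges of these markers and of Sftpb lay higher in block 2 than in block 1 without overlap. In block 3 the markers lay below block 2, and Sftpb above it. The part of these values in the Sftpb steps was not tested.

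Sftpa1 moved the other way between the first blocks. In WT it had 30762, 28171 and 24976 CPM in block 1, 17986, 17643 and 21739 CPM in block 2, and 25438, 22273 and 25966 CPM in block 3. Block 2 lay below both other blocks without overlap. It fell by 0.55 on the log2 scale in block 2 against block 1 (SE 0.09, adjusted p = 0.00499, edgeR), and leaving out any 1 tag did not end this call in 17 fits. It did not pass with the stricter cell filter, where the log2 change was -0.32 (adjusted p = 0.571, range 8.08e-07 to 0.571 over the alternatives). The return in block 3 had a log2 change of 0.36 (SE 0.09, adjusted p = 0.0612, edgeR). In CCR2KO the values were 31433, 28853 and 27284 CPM in block 1, 23520, 25826 and 22026 CPM in block 2, and 25586 and 24626 CPM in block 3. The CCR2KO change of block 2 against block 1 was -0.30 (SE 0.09) and did not pass (adjusted p = 0.261, edgeR). Reads per cell and mitochondrial share, given above, also moved with the blocks, and their part in the Sftpa1 changes was not tested.

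**Figure D2:**
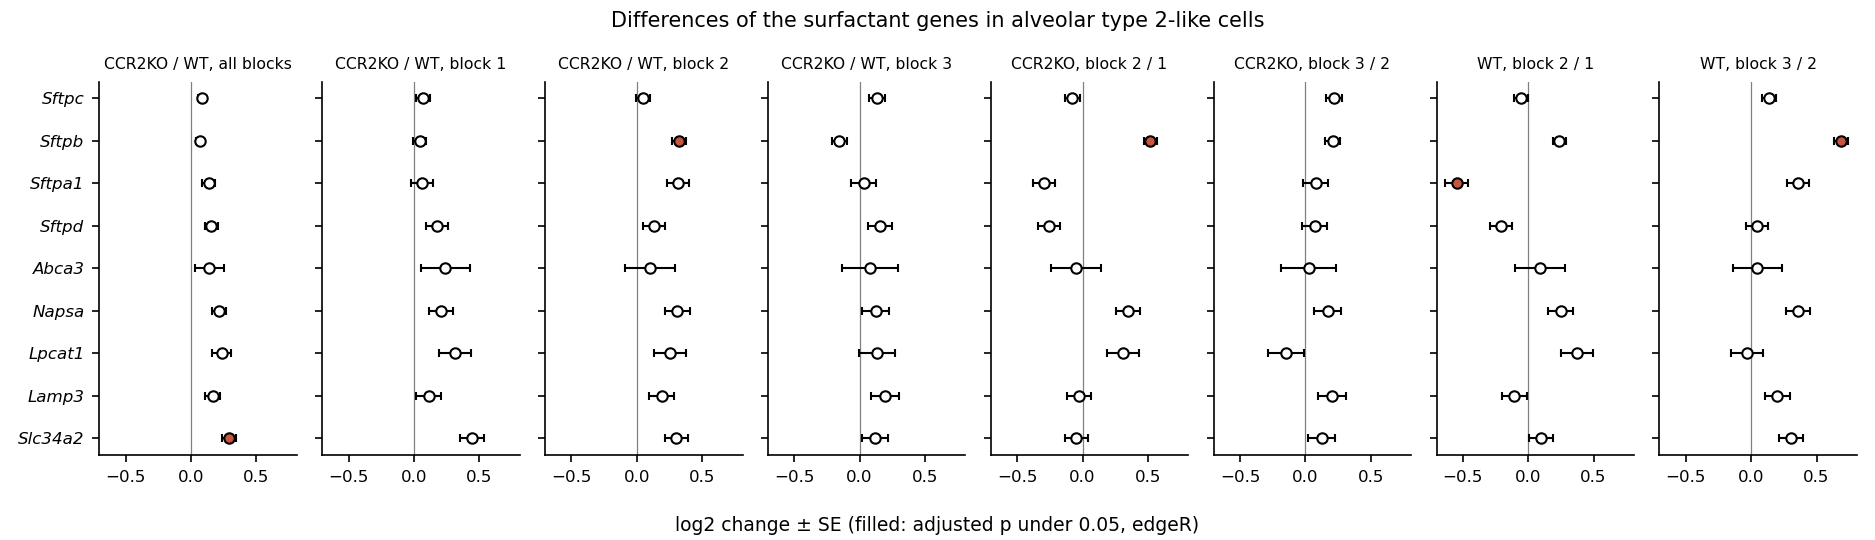
Log2 change of each surfactant gene in AT2 cells (horizontal axis, bars are SE) for CCR2KO over WT in all blocks and by block, and for the later over the earlier block within each genotype; filled points have an edgeR adjusted p under 0.05. The filled points are Slc34a2 in all blocks, Sftpb in block 2 and in 1 step of each genotype, and Sftpa1 in the first step of WT.

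Counted over the block steps, 1 of 9 genes passed in block 2 against block 1 of CCR2KO (0.36% of all genes did), 0 in block 3 against block 2 of CCR2KO (0.0134%), 1 in block 2 against block 1 of WT (0.274%) and 1 in block 3 against block 2 of WT (0.708%). The median log2 change of the 9 genes was -0.05, 0.12, 0.09 and 0.20 in these steps, against -0.02, -0.03, -0.01 and 0 over all genes. Napsa, the processing protease, had 1813, 1700 and 1701 CPM, then 2177, 2332 and 2133 CPM, then 2409 and 2579 CPM over the blocks of CCR2KO. In WT it had 1690, 1426 and 1396 CPM, then 1860, 1654 and 1841 CPM, then 2578, 2025 and 2267 CPM. The later block was higher in each genotype, as for Sftpb, with an overlap only between blocks 1 and 2 of WT. No step of Napsa passed; its largest were 0.36 in block 3 against block 2 of WT (adjusted p = 0.0901) and 0.35 in block 2 against block 1 of CCR2KO (adjusted p = 0.181, edgeR).

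The other genes had no step past the threshold. Sftpc, the protein C gene, had 121751, 125621 and 129628 CPM in block 1, 122267, 120919 and 114096 CPM in block 2, and 140039 and 136935 CPM in block 3 of CCR2KO. In WT it had 131510, 118240 and 108958 CPM, then 109741, 110011 and 125430 CPM, then 131405, 122934 and 125061 CPM over the blocks. The pair of CCR2KO tags in block 3 lay above all other CCR2KO tags, and the WT blocks overlapped. The CCR2KO change of block 3 against block 2 was 0.22 (SE 0.06, adjusted p = 0.773, edgeR), beside 0.21 for Sftpb in the same step.

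The second collectin gene, Sftpd, ran from 7309 to 10364 CPM over the CCR2KO tags, with a median of 8308 CPM, and from 7018 to 9059 CPM over the WT tags, with a median of 7250 CPM. Its log2 change between genotypes was 0.16 (SE 0.05, adjusted p = 0.269, edgeR). Lamp3, of the lamellar body membrane, ran from 2290 to 2855 CPM in CCR2KO, with a median of 2538 CPM, and from 2098 to 2950 CPM in WT, with a median of 2239 CPM. Lpcat1, the phosphatidylcholine enzyme, ran from 992 to 1355 CPM in CCR2KO, with a median of 1168 CPM, and from 757 to 1245 CPM in WT, with a median of 926 CPM. Abca3, the lipid pump, ran from 303.9 to 494 CPM in CCR2KO, with a median of 422 CPM, and from 302.4 to 449 CPM in WT, with a median of 383 CPM. For all 4 genes the genotypes overlapped and the higher median was that of CCR2KO, by less than the range between tags of 1 genotype.

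The surfactant genes were set beside lists of genes for the same pathway in AT2 cells. Between genotypes, 0 of 30 tested genes of phospholipid and fatty acid synthesis passed (median log2 change 0.22), 0 of 27 of surfactant protein processing and lamellar bodies (0.01), 0 of 25 of secretion, reuptake and clearance (0.13) and 0 of 23 transcription factors of the type 2 cell (-0.13). Of 24 tested genes of the type 2 cell's injury response, 1 was higher and 2 were lower in CCR2KO, with a median of -0.19. Of all genes tested, 0.294% passed in this comparison. Lrg1, a secreted glycoprotein of inflammation, averaged 1447 ± 287 CPM in CCR2KO and 1108 ± 123 CPM in WT, a log2 change of 0.39 (adjusted p = 0.00925, edgeR). Ifitm3, an interferon-induced antiviral gene, averaged 193 ± 114 CPM in CCR2KO and 393 ± 250 CPM in WT, a log2 change of -1.18 (adjusted p = 0.00892). Cdkn1a, a cell cycle inhibitor induced by DNA damage, averaged 128 ± 41.9 CPM in CCR2KO and 210 ± 27.7 CPM in WT, a log2 change of -0.72 (adjusted p = 0.0322; all SD, n = 8 and 9). All 3 overlapped between genotypes, and with 1 tag left out the threshold was passed by Lrg1 and Ifitm3 in 16 of 17 fits and by Cdkn1a in 6. Over 11 alternatives other than left-out tags, the call was lost in 4 for Lrg1, 4 for Cdkn1a and 2 for Ifitm3. Among these losses, all 3 genes missed the threshold with genotype as the only term. Lrg1 and Cdkn1a also missed it with the stricter cell filter, and Lrg1 and Ifitm3 with cells weighted equally in limma.

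Between blocks, each list except the transcription factors (0 of 23 in every step) had calls in some step. In block 2 against block 1 of WT, 1 of 30 synthesis genes and 4 of 24 injury genes passed, against 0.274% of all genes, and 0 of the processing and secretion lists. In block 3 against block 2 of WT, 2 of 30 synthesis, 1 of 27 processing, 1 of 25 secretion and 4 of 24 injury genes passed, against 0.708% of all genes. In CCR2KO, 2 of 24 injury genes passed in block 2 against block 1 (0.36% of all genes). None of the lists had a call in block 3 against block 2 of CCR2KO (0.0134% of all genes).

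The following list genes were named after their values were seen. In WT, Scd1, a desaturase that makes monounsaturated fatty acids, averaged 8693 ± 557 CPM in block 2 and 4756 ± 638 CPM in block 1 (log2 change 0.87, adjusted p = 0.0152), and it fell by 0.71 in block 3 against block 2 (adjusted p = 0.0429, edgeR). With 1 tag left out the first of these calls held in 13 of 17 fits and the second in 8. Plin2, of lipid droplets, averaged 219 ± 18.1 CPM in block 3 and 85.1 ± 23.5 CPM in block 2 of WT (log2 change 1.36, adjusted p = 0.0471); with 1 tag left out it stayed past the threshold in 4 of 17 fits. In the same step Cd63, a tetraspanin of late endosomes and lamellar bodies, had a log2 change of 0.56 (adjusted p = 0.0195, held in 14 of 17 fits). S100a10, a partner of annexin A2, had one of 0.81 (adjusted p = 0.0226, held in 13 of 17 fits).

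Lcn2, an iron-binding protein of epithelial injury, averaged 13879 ± 375 CPM in block 1, 6939 ± 586 CPM in block 2 and 10819 ± 748 CPM in block 3 of WT (all SD, n = 3 each). It fell by 1.0002 on the log2 scale in block 2 against block 1 (adjusted p = 8.60e-06) and rose by 0.64 in block 3 against block 2 (adjusted p = 0.000776, edgeR), and both calls held in 17 of 17 fits. Within block 2, Lcn2 averaged 9766 ± 999 CPM in CCR2KO and 6939 ± 586 CPM in WT, a log2 change of 0.49 (adjusted p = 0.0231, held in 13 of 17 fits). Lrg1 was also higher in CCR2KO there, at 1645 ± 203 CPM against 1012 ± 53.1 CPM in WT (log2 change 0.70, adjusted p = 0.00814, held in 16 of 17 fits). Il33, Retnla, Chil1 and Ifitm3 were the other injury genes with a call in a WT step.

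Outside AT2 cells the surfactant genes were read at a low level in nearly every class. Sftpc was used as the gauge, since its reads are the most numerous in the source cells, and B cells, which should lack it, as the background. An Sftpc read was found in 77.7% of CCR2KO B-like cells, at a median of 11500 reads per cell, and in 64.9% of WT B-like cells, at 12773 reads. Over the classes outside the epithelium the share lay between 72.3% and 96.5% in CCR2KO (21 classes) and between 59.9% and 94.8% in WT (20 classes). The share expected after thinning cells to 5000 reads lay between 47.4% and 57.2% in CCR2KO and between 35.0% and 41.0% in WT. Cells with fewer than 5000 reads were left out of this and all later thinned shares. At equal depth all these classes had a like share within a library, though a share of cells with a read does not show a level. A read of Sftpc in these cells is called background here, and its source was not tested.

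**Figure D3:**
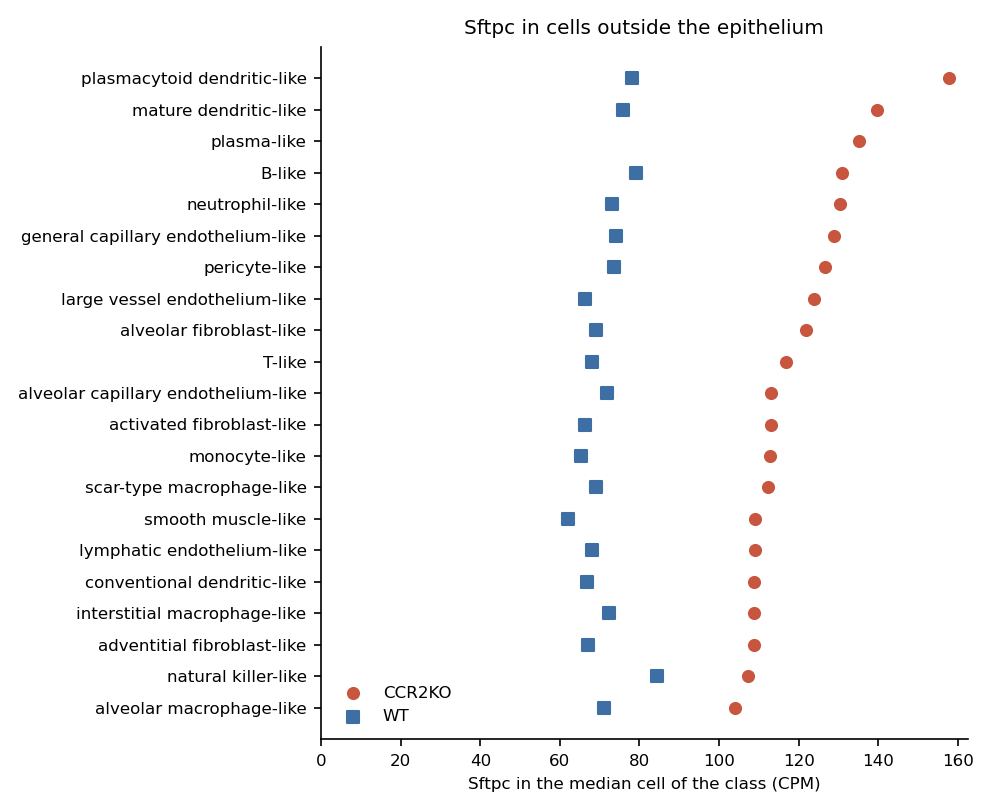
Sftpc in the median cell (horizontal axis, CPM) of each class outside the epithelium (rows), for CCR2KO (circles) and WT (squares). CCR2KO classes lie between 104 and 158 CPM and WT classes between 62.1 and 84.4 CPM.

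The level of this background was higher in CCR2KO in every class with a value in both libraries, and it also varied between classes of 1 library. The median cell of a class had 104 to 158 CPM of Sftpc in CCR2KO, with a median class of 113 CPM, and 62.1 to 84.4 CPM in WT, with a median class of 70.0 CPM. Over all cells outside the epithelium, the median cell of a tag had 116 to 122 CPM in CCR2KO and 68.1 to 74.8 CPM in WT, with no overlap and no test. The CCR2KO library also held the larger share of AT2 cells, 6.28% to 14.98% per tag against 3.86% to 7.23% in WT, and the part of this share, of the cartridge and of the genotype in the background cannot be told apart. The pooled level of a class was much less even, from 428 to 7897 CPM in CCR2KO and from 132 to 3298 CPM in WT, and few cells held most reads. Cells with over 10 times the median level were 1445 of 12497 (11.6%) in CCR2KO and 1374 of 15239 (9.02%) in WT, and they held 86.6% of the Sftpc reads outside the epithelium in CCR2KO and 87.7% in WT. A class mean could therefore rest on 1 tag: in natural killer-like cells Sftpc reached 27298 CPM in 1 CCR2KO tag and 27535 CPM in 1 WT tag, while the median tag had 818 CPM in CCR2KO and 236 CPM in WT.

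By mean level outside AT2 cells, alveolar type 1-like cells came first for 8 of the 9 genes. Sftpc averaged 12781 CPM there in CCR2KO and 5775 CPM in WT, followed by natural killer-like, pericyte-like, mature dendritic-like and smooth muscle-like cells. For Sftpb, Sftpd, Sftpa1 and Slc34a2 an unnamed airway sub-cluster, natural killer-like and pericyte-like cells were among the next classes, with ciliated-like cells for Sftpb and Sftpd and mature dendritic-like cells for Sftpa1 and Slc34a2. For Lamp3 they were pericyte-like, natural killer-like, smooth muscle-like and interstitial macrophage-like cells. For Lpcat1 they were mature dendritic-like, B-like, conventional dendritic-like and pericyte-like cells, and for Abca3 ciliated-like, plasmacytoid dendritic-like, monocyte-like and lymphatic endothelium-like cells. For Napsa the order was conventional dendritic-like, monocyte-like, B-like, plasmacytoid dendritic-like and alveolar type 1-like cells. The tags of these classes were spread widely, and the order of neighbouring classes was not tested. Sftpc in pericyte-like cells, for example, ran from 443 to 15729 CPM over the CCR2KO tags and from 249 to 15384 CPM over the WT tags.

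Free RNA drawn evenly from 1 source would keep its genes in 1 ratio in every class. Each gene was counted against Sftpc in a class and compared with the same ratio in the AT2 cells of the same tag, by an exact two-sided sign-flip permutation test over tags, adjusted over 176 pairs of gene and class. In CCR2KO AT2 cells 100 Sftpc reads went with 21.0 reads of Sftpa1, 7.31 of Sftpb, 6.83 of Sftpd, 1.64 of Napsa, 0.929 of Lpcat1 and 0.323 of Abca3. In WT AT2 cells they went with 20.2 reads of Sftpa1, 7.504 of Sftpb, 6.38 of Sftpd, 1.504 of Napsa, 0.821 of Lpcat1 and 0.312 of Abca3. Pooled over blocks, AT2 cells thus had similar ratios in both libraries. Within blocks Sftpb differed without overlap. In block 2 it stood at 8.39 to 8.83 reads per 100 Sftpc reads in CCR2KO tags and 6.92 to 7.29 in WT tags. In block 3 the order was the other way, with 8.44 to 8.62 in CCR2KO and 10.16 to 10.64 in WT. Over 22 other classes, 49 pairs had a higher ratio than AT2 cells and 7 a lower one, and all 56 differed the same way in the pooled reads of both libraries. The median log2 ratio over classes was 0.04 for Sftpa1, 0.02 for Sftpd, -0.18 for Slc34a2, 0.28 for Sftpb, -0.48 for Lamp3 and 0.55 for Napsa, and it was 2.17 for Lpcat1 and 3.23 for Abca3. In these class sums Sftpa1 and Slc34a2 were higher in 0 of 22 classes, Abca3 in 18, Lpcat1 in 14, Napsa in 10, Sftpb in 4, Sftpd in 2 and Lamp3 in 1. The ratio was tested for the surfactant genes only, so no share over all genes stands beside these counts. How often other genes would exceed their AT2 ratio to Sftpc is not known. Of the 4 Sftpb calls, those of T-like, alveolar macrophage-like and neutrophil-like cells (0.48, 0.49 and 0.45) held in 10, 8 and 5 of 17 fits that left out 1 tag.

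The class sums were carried by the few cells that held most Sftpc reads, and the remaining cells had other ratios. In cells outside the epithelium with at most 10 times the median Sftpc level, 100 Sftpc reads went with 33.5 to 53.5 reads of Sftpa1 over the CCR2KO tags and 30.9 to 51.9 over the WT tags. In AT2 cells the same value was 18.0 to 25.8 in CCR2KO and 16.04 to 23.8 in WT, so Sftpa1 was above the AT2 range in every tag. Sftpb likewise stood at 14.99 to 23.9 reads in CCR2KO and 16.1 to 26.9 in WT, against 5.53 to 8.83 in CCR2KO AT2 cells and 5.60 to 10.6 in WT AT2 cells. Cells over 10 times the median had 10.5 to 19.3 reads of Sftpa1 in CCR2KO and 10.1 to 18.6 in WT, and 4.29 to 7.62 of Sftpb in CCR2KO and 2.95 to 7.10 in WT. These cells were divided by Sftpc, which is also the denominator, so the division itself moves the ratio, and no test was made. Whether the reads of cells near the median came from AT2 cells was not tested.

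**Figure D4:**
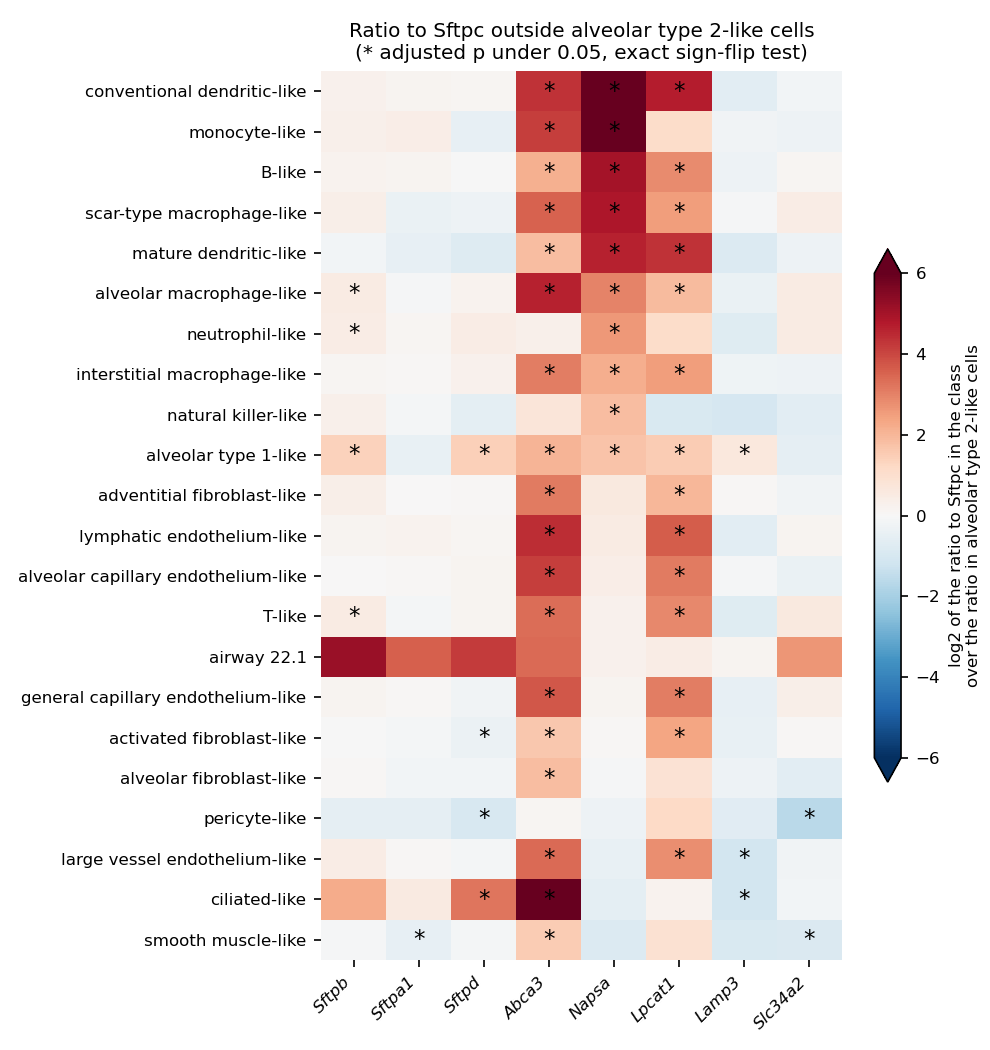
Ratio of 8 surfactant genes (columns) to Sftpc in each class outside AT2 cells (rows), as log2 of the ratio over that in AT2 cells of the same tags (colour, limited at -6 and 6); asterisks mark an adjusted p under 0.05 in the exact sign-flip test. The Abca3, Napsa and Lpcat1 columns hold 42 of the 49 higher pairs.

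Napsa stood out in antigen-presenting classes. Per 100 Sftpc reads, conventional dendritic-like cells had 86.2 reads of Napsa in CCR2KO and 382 in WT, and monocyte-like cells 38.2 in CCR2KO and 171 in WT. The ratio was above that of AT2 cells in 17 of 17 tags in both classes, by 7.31 ± 1.35 on the log2 scale in conventional dendritic-like cells and by 6.06 ± 1.32 in monocyte-like cells (SD, n = 17, adjusted exact permutation p = 0.000207 each). B-like cells (4.98), scar-type macrophage-like cells (4.85) and mature dendritic-like cells (4.62) followed. Lower but past the threshold were alveolar macrophage-like (2.96), neutrophil-like (2.59), interstitial macrophage-like (2.19), natural killer-like (1.87) and alveolar type 1-like cells (1.69). In the other 12 classes, T-like, ciliated-like and all fibroblast-like and endothelium-like classes among them, Napsa was not called.

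As a level, Napsa in conventional dendritic-like cells lay between 268 and 956 CPM over the CCR2KO tags, with a median of 551 CPM, and between 334 and 786 CPM over the WT tags, with a median of 536 CPM. In monocyte-like cells it lay between 321 and 1256 CPM in CCR2KO, with a median of 476 CPM, and between 367 and 616 CPM in WT, with a median of 473 CPM. The genotypes overlapped in both classes. On the same scale Napsa in AT2 cells averaged 2089 ± 300 CPM in CCR2KO and 1861 ± 334 CPM in WT (SD, n = 8 and 9), above every tag of these classes. After thinning, 49.4% of CCR2KO and 47.4% of WT conventional dendritic-like cells had a Napsa read, as did 38.0% of CCR2KO and 40.7% of WT monocyte-like cells and 19.2% of CCR2KO and 20.5% of WT B-like cells. The median class outside AT2 cells had 3.89% in CCR2KO and 4.93% in WT. Plasmacytoid dendritic-like cells, with 57 CCR2KO and 65 WT cells, were on too few tags for the test, and 34.0% of those in CCR2KO and 35.5% of those in WT had a Napsa read.

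**Figure D5:**
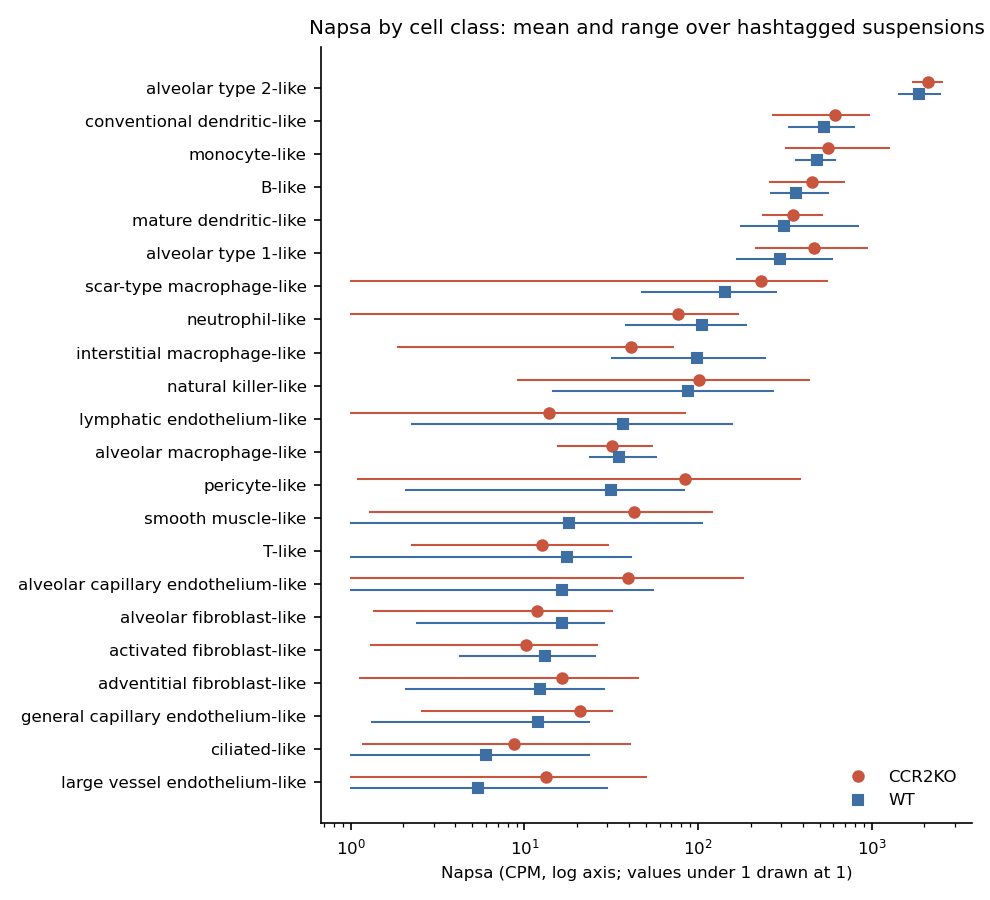
Napsa by class (rows): mean (symbols) and range (lines) over tagged suspensions on a log axis in CPM, CCR2KO above WT in each row; values under 1 are drawn at 1. Conventional dendritic-like, monocyte-like and B-like cells come next after AT2 cells.

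Abca3 and Lpcat1 departed from the Sftpc ratio in most classes, at low levels. Abca3 was furthest up in ciliated-like cells, by 5.96 ± 1.76 on the log2 scale and in 12 of 12 tags (adjusted exact permutation p = 0.00232), with 8.73 reads per 100 Sftpc reads in CCR2KO and 43.4 in WT. Alveolar macrophage-like (4.63), lymphatic endothelium-like (4.43) and conventional dendritic-like cells (4.33) followed. The Abca3 calls of mature dendritic-like (1.83) and smooth muscle-like cells (1.51) held in 7 and 9 of 17 fits that left out 1 tag. Ciliated-like cells also had the largest thinned share of cells with an Abca3 read, 17.1% in CCR2KO and 17.4% in WT, while the median class had 3.49% in CCR2KO and 3.59% in WT. Lpcat1 was furthest up in conventional dendritic-like (4.73) and mature dendritic-like cells (4.35). In mature dendritic-like cells 100 Sftpc reads went with 6.19 of Lpcat1 in CCR2KO and 7.63 in WT. The Lpcat1 level there was 123 ± 63.7 CPM in CCR2KO (SD, n = 6) and 187 ± 88.0 CPM in WT (SD, n = 9). Set against lymphocyte-like cells in place of AT2 cells, 10 pairs stayed higher. For Abca3 these were alveolar capillary endothelium-like (1.47), alveolar macrophage-like (1.94) and ciliated-like cells (3.18), for Napsa conventional dendritic-like (3.72) and monocyte-like cells (2.47), and for Lpcat1 conventional dendritic-like cells (2.26). Lymphocyte-like classes were themselves among those above the AT2 ratio, and against them 14 ratios took a negative sign, 5 of Abca3, 5 of Lpcat1 and 4 of Napsa, alveolar type 1-like and alveolar macrophage-like cells among them.

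The epithelium next to AT2 cells showed a second kind of departure. In alveolar type 1-like cells, whose class also held markers of transitional epithelium, 6 of 8 genes exceeded the Sftpc ratio of AT2 cells: Sftpd by 1.45, Sftpb by 1.40, Lamp3 by 0.64, Abca3 by 2.06, Napsa by 1.69 and Lpcat1 by 1.502. Against lymphocyte-like cells Sftpb (1.15), Sftpd (1.496) and Lamp3 (0.91) stayed higher, while Abca3 (-0.63), Napsa (-1.90) and Lpcat1 (-0.97) took a negative sign. The Lamp3 call against AT2 cells held in 5 of 17 fits with 1 tag left out, and those of the other 5 genes in 17 of 17. Sftpb lay between 1200 and 3974 CPM over the CCR2KO tags of this class, with a median of 2075 CPM, and between 225 and 2678 CPM over the WT tags, with a median of 1076 CPM. The genotypes overlapped, and the difference was not among those called. Sftpd also exceeded the ratio in ciliated-like cells, by 3.22 in 11 of 12 tags, with 23.5 reads per 100 Sftpc reads in CCR2KO and 110 in WT. An airway sub-cluster, left without a name because markers of both club and ciliated cells led it, had ratios up by 5.16 for Sftpb, 4.18 for Sftpd and 3.599 for Sftpa1, but only 6 tags, whose smallest p of 0.03125 could not pass the adjustment.

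Of the 7 lower pairs, 3 lay in pericyte-like and smooth muscle-like cells for Slc34a2 and Sftpa1. Slc34a2 was lower than the Sftpc ratio in pericyte-like (-1.61) and smooth muscle-like cells (-0.86), Lamp3 in ciliated-like (-1.12) and large vessel endothelium-like cells (-1.09), Sftpd in pericyte-like (-0.98) and activated fibroblast-like cells (-0.36), and Sftpa1 in smooth muscle-like cells (-0.47). With 1 tag left out, the Lamp3 calls held in 5 of 17 fits for ciliated-like and 9 for large vessel endothelium-like cells, and the Sftpd call for activated fibroblast-like cells in 10. Both Lamp3 calls also ended against lymphocyte-like cells and with 1 read added in place of 0.5, and that of ciliated-like cells with the surfactant genes kept in the clustering. The Sftpd call of activated fibroblast-like cells ended against lymphocyte-like cells, with the surfactant genes kept in the clustering and with doublets kept. Over 4 alternatives other than left-out tags, the Slc34a2 call held in 4 for pericyte-like and 2 for smooth muscle-like cells. The Sftpa1 call of smooth muscle-like cells and the Sftpd call of pericyte-like cells each held in 3. In humans Lamp3 is also a marker of mature dendritic cells. In mature dendritic-like cells of these mice its log2 ratio was -0.83 ± 1.62 (SD, n = 15 tags), which was not called.

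Between genotypes, the classes outside AT2 cells were tested for the same genes. Of 188 pairs of gene and class over 21 classes, 11 passed, and all 11 were higher in CCR2KO. They were 3 of 9 genes in alveolar macrophage-like cells (1.17% of all genes there), 3 of 9 in monocyte-like cells (9.88%), and 1 of 9 each in ciliated-like (0.0553%), conventional dendritic-like (0.245%), general capillary endothelium-like (0.602%), alveolar fibroblast-like (0.316%) and smooth muscle-like cells (0.0666%). In the other 14 classes none of the surfactant genes tested passed, against 0% of all genes in mature dendritic-like, 0.0236% in alveolar type 1-like, 0.0321% in pericyte-like, 0.0489% in large vessel endothelium-like, 0.0896% in natural killer-like, 0.0949% in alveolar capillary endothelium-like, 0.107% in B-like, 0.124% in lymphatic endothelium-like, 0.147% in neutrophil-like, 0.155% in T-like, 0.941% in interstitial macrophage-like, 1.4% in activated fibroblast-like, 1.48% in adventitial fibroblast-like and 2.63% in scar-type macrophage-like cells. Sftpc had a positive log2 change in 17 of 21 classes, with a median of 1.05, and Slc34a2 in 19, with a median of 1.27, while Napsa had one in 11, with a median of 0.07.

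In alveolar macrophages, which take up and break down surfactant, Sftpc lay between 149 and 1748 CPM over the CCR2KO tags of the class, with a median of 364 CPM, and between 89.0 and 288 CPM over the WT tags, with a median of 154 CPM. The genotypes overlapped at the low end. The log2 change was 1.35 (SE 0.26, adjusted p = 0.0134, edgeR), beside 1.70 for Sftpa1 (adjusted p = 0.00233) and 2.03 for Sftpd (adjusted p = 0.00583). In monocyte-like cells Sftpc lay between 466.4 and 5477 CPM in CCR2KO, with a median of 622 CPM, and between 150 and 821 CPM in WT, with a median of 220 CPM. Its log2 change there was 1.96 (SE 0.41, adjusted p = 0.00924, edgeR), beside 2.35 for Sftpa1 and 2.61 for Sftpd. The class held 167 CCR2KO cells and 1164 WT cells. Its leading genes included 6 markers of classical and 6 of nonclassical monocytes, and the mix may differ between genotypes. Of all genes tested in it, 38 were called higher and 1184 lower in CCR2KO. In conventional dendritic-like cells 1 CCR2KO tag reached 6201 CPM of Sftpc while the WT tags ended at 234 CPM (log2 change 2.15, adjusted p = 0.0259, edgeR). Sftpc also passed in ciliated-like cells (1.75, adjusted p = 0.000806), Sftpa1 in general capillary endothelium-like cells (1.17, adjusted p = 0.0308), Sftpb in smooth muscle-like cells (2.94, adjusted p = 0.0497) and Lpcat1 in alveolar fibroblast-like cells (2.92, adjusted p = 0.0396, all edgeR). Beside these values stands the background of Sftpc in the median cell, 104 CPM in CCR2KO and 71.1 CPM in WT for alveolar macrophage-like cells. Few cells also held most reads. In smooth muscle-like cells, for example, 16 of 315 CCR2KO cells held 94.1% of the Sftpc reads of the class, and 15 of 285 WT cells held 82.9%. The part of that background and of such cells in the calls was not tested.

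Over 28 classes the genes fell into groups by pattern, given as Pearson r of log2(CPM + 1), with no test, since the classes share libraries and depth. The 3 most similar of 15161 genes were Spink5 (0.91), S100g (0.89) and Tinag (0.88) for Sftpc, and Hc (0.90), Tinag (0.90) and Spink5 (0.89) for Lamp3. They were Cxcl15 (0.93), Mat1a (0.91) and Sfta2 (0.90) for Sftpb, Cxcl15 (0.92), Chil1 (0.92) and S100g (0.91) for Sftpa1, and Cxcl15 (0.97), Muc1 (0.95) and Sfta3-ps (0.93) for Sftpd. Slc34a2 was most like Chil1 (0.91), Lrp2 (0.89) and Irx1 (0.89), Lpcat1 most like Scd1 (0.81), Hc (0.79) and Lrrk2 (0.77), and Abca3 most like Vamp8 (0.81), Rnaset2a (0.80) and Bex3 (0.78). Napsa had other neighbours, H2-Aa (0.74), Cd74 (0.69) and Ap1s3 (0.67), of which H2-Aa and Cd74 act in antigen presentation. Between the surfactant genes, r was 0.93 for Sftpc with Sftpa1, 0.94 for Sftpb with Sftpd and 0.92 for Lamp3 with Slc34a2, and 0.25 to 0.46 for Napsa with each of the others.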

How the data were processed

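Cells of whole lung were captured on a BD Rhapsody microwell system and marked with hashtag antibodies. The deposited tables hold whole-number counts per gene and cell, not normalized, 1 table per genotype. They are treated as reads and not molecules: the median nonzero entry was 10 and 21.65% equalled 1. The submitters' processing notes name GRCm38, cutadapt 2.10, Bowtie2 2.4.2 and R 3.6.3, and the role of each is not given in the sources used here. The 2 columns that belong to no cell were not used, and cells the authors named doublet (531 CCR2KO and 680 WT) entered no comparison.

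The filter asked for 200 detected genes or more and no more than 25% mitochondrial reads per cell (15218 CCR2KO and 17227 WT cells passed), and Scrublet removed 336 CCR2KO (2.21%) and 370 WT (2.15%) doublets, run per library at an expected rate of 0.06. Both libraries were clustered together with scanpy 1.11.5 and leidenalg 0.10.2 (2000 variable genes, 40 principal components, 20 neighbours, resolution 1.5), and 29 of 31 clusters were named from 366 markers in 30 lists. Since Scrublet calls were few, doublets may remain. A cluster with a mean doublet score over 0.12 (133 CCR2KO and 195 WT cells) was set aside, and an airway cluster was divided at resolution 0.3. These steps, the name of the monocyte cluster, the median-cell measure of Sftpc, the count of cells over 10 times it, the pooled reads per 100 Sftpc reads and the motifs were chosen after the data were seen. The surfactant genes and all lists were chosen with earlier results of these data known.

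Reads were summed per tag over tags with at least 10 cells of a class and tested with edgeR 4.0.16 (quasi-likelihood, filterByExpr, TMM, Benjamini-Hochberg at 0.05 over all genes). The model had 6 means, genotype by block, over all tags. CPM in AT2 cells use TMM-adjusted totals, other CPM plain totals. The ratio to Sftpc used log2 with 0.5 reads added, over classes with at least 6 tags, and an exact sign-flip test whose smallest p at 17 tags is 1.53e-05. On simulated data, edgeR was tried for the genotype contrast over all blocks in AT2 cells, and the sign-flip test for the ratio. The simulated ratio had more reads of the gene per Sftpc read than Abca3 had in AT2 cells. The other contrasts, DESeq2, limma and Dixon's criterion were not tried on simulated data. The text names every surfactant gene, the list genes past the threshold between genotypes over all blocks (list genes of other contrasts were named after their values were seen), the 3 genes most similar to each by pattern and the 5 classes with the highest levels. Same-numbered tags of the genotypes were not paired: their deviations correlated at -0.016 to 0.0672 over 8 pairs. Alternatives covered normalization, tool (DESeq2 1.42.0, limma 3.58.1), filters, design, clustering, doublets, weighting and leaving out each tag. Intervals over cells cover counting error only and are not printed.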

Additional observations from a re-analysis of the deposited data

Results flagged for a closer look

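In each of 36 groups of 8 or 9 tags (9 genes, in AT2 cells and outside the epithelium, in each genotype), the highest and lowest tag were compared with the others by Dixon's criterion, and 2 tags stood apart. Chance flags about 1 in 20 groups. Lamp3 in AT2 cells had 2950 CPM in WT tag 7, and 2098 to 2407 CPM in the other WT tags. Sftpb outside the epithelium had 102 CPM in WT tag 7 and 34.1 to 57.7 CPM in the other WT tags, while its share of cells with a read, 26.5%, was the median of the WT tags.

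Cells that the authors named doublet entered no comparison, and they held surfactant reads above the level of single cells outside the epithelium. Sftpc stood at 8572 CPM in 531 such CCR2KO cells and at 6011 CPM in 680 such WT cells, against means of 1089 CPM in CCR2KO and 748 CPM in WT over the tags outside the epithelium. A read of Sftpc was found in 90.4% of them in CCR2KO and in 82.9% in WT, at medians of 30576 reads per cell in CCR2KO and 35574 in WT.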

How the results depend on the processing

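Between genotypes in AT2 cells, edgeR called 44 genes and 1 surfactant gene, with 1, 21 and 3 genes within blocks 1, 2 and 3. DESeq2 called 275 genes, and 36 (1 surfactant gene), 163 and 120 within the blocks. With no filter on low counts there were 75 (2), and 4 (1) and 42 (2) in blocks 1 and 2. With genotype as the only term there were 11 (0), and Sftpb changed sign to -0.021 (adjusted p = 0.999). With the tag number as a replicate block there were 27 (0), for numbers that did not pair the samples. The stricter cell filter gave 20 (0), and 0, 5 (0) and 0 within the blocks, on 1334 AT2 cells. Surfactant genes kept in the clustering gave 6 in block 1, 5 in block 3 and 0 surfactant genes in block 2. Doublets kept gave 5 in blocks 1 and 3, totals without the surfactant genes 0 in block 1, and cells weighted equally in limma 2 surfactant genes overall and 4 (1) in block 1.

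For block 2 over block 1 and block 3 over block 2, edgeR called 41 (1) and 106 (1) genes in WT and 54 (1) and 2 (0) in CCR2KO. DESeq2 called 185 (2) and 491 (3) in WT and 232 (3) and 44 in CCR2KO, and no filter gave 64 (2) and 168 (2) in WT and 84 (2) and 12 in CCR2KO. The stricter filter gave 21 and 42 in WT and 27 and 5 in CCR2KO. In the first WT step RLE size factors and surfactant genes kept in the clustering each gave 2 surfactant genes. In the second, resolution 0.8 and limma each gave 2, and doublets kept gave 61 genes. Limma gave 4 genes in the second CCR2KO step. The interaction had 55 (1) genes in DESeq2, 5 (1) with no filter and 2 in limma. The cause of these shifts was not tested.

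With each tag left out in turn, genes (and surfactant genes) called ranged from 17 to 47 (0 to 1) between genotypes, 0 to 2 (0), 8 to 23 (0 to 1) and 0 to 4 (0) within blocks, 20 to 43 (1 to 2) and 51 to 95 (1 to 2) in the WT steps, 26 to 65 (1) and 0 to 5 (0) in the CCR2KO steps, and 0 to 4 (0 to 1) for the interaction. Ratios to Sftpc called higher ranged from 44 to 49 and lower from 5 to 7.

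Outside AT2 cells the 11 genotype calls became 34 with no filter, 6 with genotype as the only term and 7 with doublets kept. Leaving out each tag was not run there. Lower ratios fell to 4 with surfactant genes kept in the clustering. Against lymphocyte-like cells there were 10 higher and 16 lower. The sign then turned for Abca3 in activated fibroblast-like (-1.09), alveolar fibroblast-like (-0.82), alveolar type 1-like (-0.63), mature dendritic-like (-0.91) and smooth muscle-like cells (-1.18). It turned for Lpcat1 in activated fibroblast-like (-0.12), adventitial fibroblast-like (-0.47), alveolar macrophage-like (-0.58), alveolar type 1-like (-0.97) and scar-type macrophage-like cells (-0.12). It turned for Napsa in alveolar macrophage-like (-0.63), alveolar type 1-like (-1.90), interstitial macrophage-like (-1.40) and neutrophil-like cells (-1.005). Over all alternatives other than left-out tags, 295 of 357 log2 changes and 172 of 217 ratios kept their direction and their side of the threshold. Of 200 shares of cells with a read, 172 moved past their interval when cells were thinned or 2 reads were asked for, so depth limits what such shares show.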
